A study of Mus musculus with 16 samples.

Results

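Cytochrome P450 genes of families 1 to 3 were read out of RNA-seq of mouse liver, leaving out the Cyp2a genes. A gene was a member when its symbol named a P450 of family 1, 2 or 3 with a subfamily letter and a number, and its count summed to at least 10 over the 16 libraries. Of 33730 genes in the count table, 45 were members, namely 3 of family 1, 33 of family 2 and 9 of family 3. A further 8 genes of such names stayed under the minimum count, which were Cyp2b13, Cyp2b23, Cyp2c65, Cyp2c66, Cyp2j7, Cyp2j12, Cyp2j13 and Cyp2t4. The members fell into 13 subfamilies, of which Cyp2c (13 members), Cyp3a (9), Cyp2d (8) and Cyp2j (4) were the largest.

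The 16 libraries formed 4 groups of 4, all from mice of the C57BL/6 strain. KO CDDO-Me livers came from Nrf2-/- mice given CDDO-Me at 3 mg/kg, and KO untreated livers from Nrf2-/- mice left untreated. WT CDDO-Me livers came from wild-type mice given the same dose, and WT DMSO livers from wild-type mice given the solvent dimethyl sulfoxide (DMSO) at 1 µL/g. CDDO-Me, also called bardoxolone methyl, activates the transcription factor NRF2, the product of Nfe2l2. Both agents were injected intraperitoneally 24 h and again 1 h ahead of partial hepatectomy, per the labels, and the liver is that of day 0. The series' design text instead puts the resection 24 h after treatment and gives 4 animals per group. Sources used here state neither age nor sex. The KO controls are labelled untreated and the WT controls received DMSO, so vehicle and drug cannot be told apart in the KO drug comparison, nor vehicle and genotype in KO untreated against WT DMSO.

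P450 enzymes are heme proteins of the endoplasmic reticulum that insert an oxygen atom from O2 into their substrates, with electrons passed from NADPH by P450 oxidoreductase, the product of Por. Families 1 to 3 hold most enzymes that oxidise drugs, pollutants and plant compounds in liver, and several also act on arachidonic acid, steroids or bile acids. In hepatocytes their genes answer to ligand-activated receptors, with the aryl hydrocarbon receptor AHR acting on Cyp1a genes, the constitutive androstane receptor CAR (Nr1i3) on Cyp2b10 and the pregnane X receptor PXR (Nr1i2) on Cyp3a11.

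Library totals were 12002317 to 99284626 counts. Nfe2l2 had 15.7 to 20.99 CPM (counts scaled to library size by the TMM method) in KO CDDO-Me livers, 19.9 to 51.7 CPM in KO untreated livers, 36.6 to 45.5 CPM in WT CDDO-Me livers and 42.8 to 74.9 CPM in WT DMSO livers. KO untreated 1, the highest of its group at 51.7 CPM, lay within the WT range, and a count over the whole gene checks nothing where the deleted stretch is not named. Nqo1, a classic NRF2 target, had 0.766 to 1.98 CPM in KO CDDO-Me livers and 0.434 to 1.19 CPM in KO untreated livers, against 30.7 to 45.9 CPM in WT CDDO-Me livers and 3.21 to 4.22 CPM in WT DMSO livers, with no overlap between genotypes. The hepatocyte marker Alb was at 30429 to 85260 CPM. KO untreated 1 and 2 and WT DMSO 1 and 2 had 0.673 to 0.967% of counts on genes annotated as sense intronic or TEC, a class of transcripts still to be experimentally tested, against 0.186 to 0.407% in the other 12 libraries. Ribosomal RNA took 0.173 to 0.634% of counts in WT CDDO-Me 2, 3 and 4 and WT DMSO 1, 2 and 3, and 0.00108 to 0.0368% in the rest. The members together took 0.666% and 0.693% of counts in KO CDDO-Me 1 and 2, and 1.09 to 1.77% in the other 14 libraries. In KO CDDO-Me livers, 30 of 40 tested members were lower in both libraries 1 and 2 than in libraries 3 and 4, and 4 were higher in both. The same share over all genes tested was not computed, so this split is not shown to be particular to the members. All libraries with the higher ribosomal RNA share were WT. Among WT libraries only WT DMSO 4 and WT CDDO-Me 1 had the lower share, so its part is hard to tell apart from genotype and was not tested. For the other library differences, the part in the results below was tested only by leaving libraries out. For the intronic share, a fit with that share as a covariate was added. In whole tissue, fewer cells of a type and less RNA per cell cannot be told apart.

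Of the members, 40 passed the filter on low counts and were tested, and Cyp2b9, Cyp2d34, Cyp2s1, Cyp3a16 and Cyp3a57 were not. All Cyp2c members lie on chromosome 19 and all Cyp2d members on chromosome 15. All Cyp3a members lie on chromosome 5 and all Cyp2j members on chromosome 4. Cyp1a1 and Cyp1a2 lie on opposite strands of chromosome 9, while Cyp1b1 and Cyp2u1 are each the only member on their chromosome. The promoters below belong to the 4 members with a RefSeq entry among the 5 called lower in KO CDDO-Me livers under the drug, and they show the start regions of the genes that carry most of the findings. Each sequence is RefSeq's (GRCm38.p6) and runs 5′ to 3′ on the gene's strand from 250 bases before the start to 50 bases after it. Capitals mark GCGTG, the core motif bound by AHR with its partner ARNT, searched on both strands.
Cyp1a1 promoter, chr9:57697363-57697662, plus strand: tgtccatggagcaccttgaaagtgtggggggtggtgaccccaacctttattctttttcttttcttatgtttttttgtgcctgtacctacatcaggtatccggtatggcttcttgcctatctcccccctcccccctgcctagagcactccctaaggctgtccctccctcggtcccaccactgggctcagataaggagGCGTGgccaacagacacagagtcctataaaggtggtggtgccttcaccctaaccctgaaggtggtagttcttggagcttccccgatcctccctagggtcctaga
Cyp1a2 promoter, chr9:57683606-57683905, minus strand: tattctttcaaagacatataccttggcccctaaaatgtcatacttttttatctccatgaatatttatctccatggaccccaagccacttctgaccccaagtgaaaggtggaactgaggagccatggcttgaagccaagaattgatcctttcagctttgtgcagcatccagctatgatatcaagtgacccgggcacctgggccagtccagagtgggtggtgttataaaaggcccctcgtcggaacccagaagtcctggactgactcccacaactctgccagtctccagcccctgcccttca
Cyp2d11 promoter, chr15:82393973-82394272, minus strand: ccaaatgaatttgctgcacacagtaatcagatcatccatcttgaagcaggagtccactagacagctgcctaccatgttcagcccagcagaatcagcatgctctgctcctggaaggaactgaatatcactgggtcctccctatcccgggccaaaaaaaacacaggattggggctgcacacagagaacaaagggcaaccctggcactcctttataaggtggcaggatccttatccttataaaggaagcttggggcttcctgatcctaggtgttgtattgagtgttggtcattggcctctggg
Cyp3a59 promoter, chr5:146079008-146079307, plus strand: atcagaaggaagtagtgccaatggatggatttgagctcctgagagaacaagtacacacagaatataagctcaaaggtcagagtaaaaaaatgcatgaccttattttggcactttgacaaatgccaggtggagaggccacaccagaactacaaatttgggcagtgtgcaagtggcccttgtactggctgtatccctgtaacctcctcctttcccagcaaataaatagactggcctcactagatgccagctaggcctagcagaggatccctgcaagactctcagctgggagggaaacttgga

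Among these 4, only the Cyp1a1 promoter held GCGTG, at position -54 from the start. Entries were found for 38 members, 40 promoters in all, of which 6 (15.0%) held GCGTG, against 32.4% of 32851 promoters of the same length. The other 5 belonged to Cyp1b1, Cyp2b10, Cyp2c68, Cyp2j9 and Cyp2r1. The antioxidant response element core TGACNNNGC was in 1 of 40 (2.5%), that of Cyp2j6, against 12.4% of all promoters. TTCNNNGAA, the motif bound by STAT5, was in 0 of 40, against 8.3% of all promoters. These windows cover only the start of each gene, and a match or its lack describes the letters of the window.

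By level, expressed per gene length as FPKM in the deposited table, the members were led in each group by Cyp2e1, which oxidises ethanol and paracetamol. Cyp2e1 averaged 992 ± 478 FPKM in KO CDDO-Me livers, 1212 ± 343 FPKM in KO untreated livers, 1605 ± 319.9 FPKM in WT CDDO-Me livers and 1403 ± 380.0 FPKM in WT DMSO livers (SD, n = 4 each). Summed over all members, the FPKM level was 2903, 3099, 4657 and 5333 in KO CDDO-Me livers, 5415, 5526, 6407 and 5195 in KO untreated livers, 5109.7, 5302, 6432 and 4918 in WT CDDO-Me livers and 5019.7, 4961, 7061 and 5794 in WT DMSO livers. KO CDDO-Me 1 and 2 had the lowest sums, while KO CDDO-Me 4 lay within the range of every other group.

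**Figure D1:**
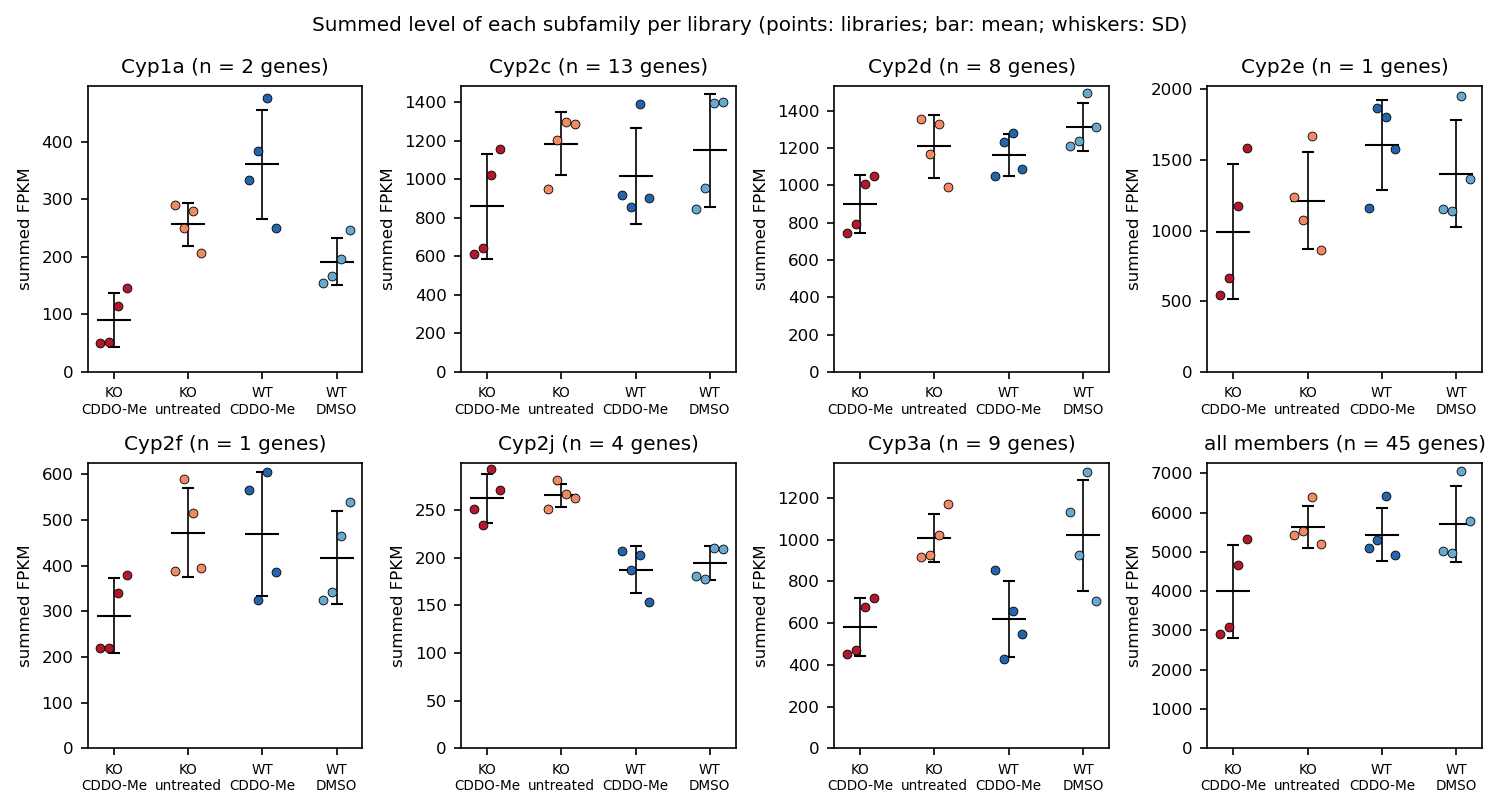
Summed level (FPKM, y axis) of the members of each subfamily with over 100 FPKM in a group, and of all 45 members, in KO CDDO-Me, KO untreated, WT CDDO-Me and WT DMSO livers (x axis); points are libraries 1 to 4 from left to right, bars the mean and whiskers the SD of 4. The 4 KO CDDO-Me livers lie lowest for Cyp1a, at 50.02 to 146 FPKM, and both KO groups lie above both WT groups for Cyp2j, an order that neither KO group kept against WT DMSO livers after rescaling by TMM factors; the same rescaling made KO CDDO-Me meet WT DMSO for Cyp1a.

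In all, 7 of 40 tested members passed a Benjamini-Hochberg adjusted p of 0.05 in at least 1 of 4 comparisons, by edgeR's quasi-likelihood test over 16206 genes. Every log2 change below is given with its standard error after the ± sign. Most calls came under the drug, where 5 members were lower in KO CDDO-Me livers, relative to WT CDDO-Me livers, and 0 were higher. The 5 were Cyp1a1, Cyp1a2, Cyp2d11, Cyp2d22 and Cyp3a59. They make 12.5% of the members tested, against a background of 2.23% of all genes called lower, 1.06% called higher and 3.3% called in either direction. At an unadjusted p under 0.05 there were 16 members (40%), against 17.1% of all genes. A negative fold change was seen in 31 of 40 members, with a median log2 fold change of -0.57, against -0.01 over all genes tested. Ranges did not overlap for 8 members that were lower (20%), against 9.82% of all genes, and for 2 that were higher (5%), against 9.25%.

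The 5 calls came down to 1, Cyp2d11, when KO CDDO-Me 1 and 2 were left out, a setting chosen after seeing the data that leaves 2 libraries in that group. Of all genes, 140 were then called in place of 534, and the median over members was -0.42.

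KO CDDO-Me against KO untreated livers gave 1 call, Cyp2d22, which was lower, against a background of 0.0247% of all genes called lower, 0.105% higher and 0.13% in either direction. There 31 of 40 members had a negative fold change and the median was -0.46, against -0.04 over all genes tested. At an unadjusted p under 0.05 there were 12 members (30%), against 15.8% of all genes. Ranges did not overlap for 9 lower members, against 4.5% of all genes, and for 2 higher ones, against 5.98%.

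KO untreated against WT DMSO livers gave 1 member higher, Cyp2u1, against a background of 0.407%, and 1 lower, Cyp3a13, against a background of 0.969%, or 1.38% of all genes in either direction. At an unadjusted p under 0.05 there were 10 members (25%), against 14.1% of all genes. Ranges did not overlap for 3 higher members, against 2.87% of all genes, and for 3 lower ones, against 3.04%.

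WT CDDO-Me against WT DMSO livers gave 0 calls by edgeR, against a background of 0.728% of all genes in either direction, 0.555% higher and 0.173% lower. DESeq2 called 2 members, against 1.33% of 33730 genes. That base holds every gene, whereas only 23640 reached the total of 10 that all members have. DESeq2 shares here and elsewhere are thus not on the same base as the members or the edgeR shares. At an unadjusted p under 0.05 there were 4 members (10%), against 15.3% of all genes. Ranges did not overlap for 2 higher members, against 4.36% of all genes, and for 1 lower, against 2.84%. The interaction, taken as the response to the drug in WT minus that in KO, gave 0 calls by edgeR against a background of 0.13% in either direction, all of them higher. There 8 members had an unadjusted p under 0.05 (20%), against 8.53% of all genes, and DESeq2 called 2, against 0.51% of 33730 genes. The comparisons share groups of libraries, so their values are not independent of each other.

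**Figure D2:**
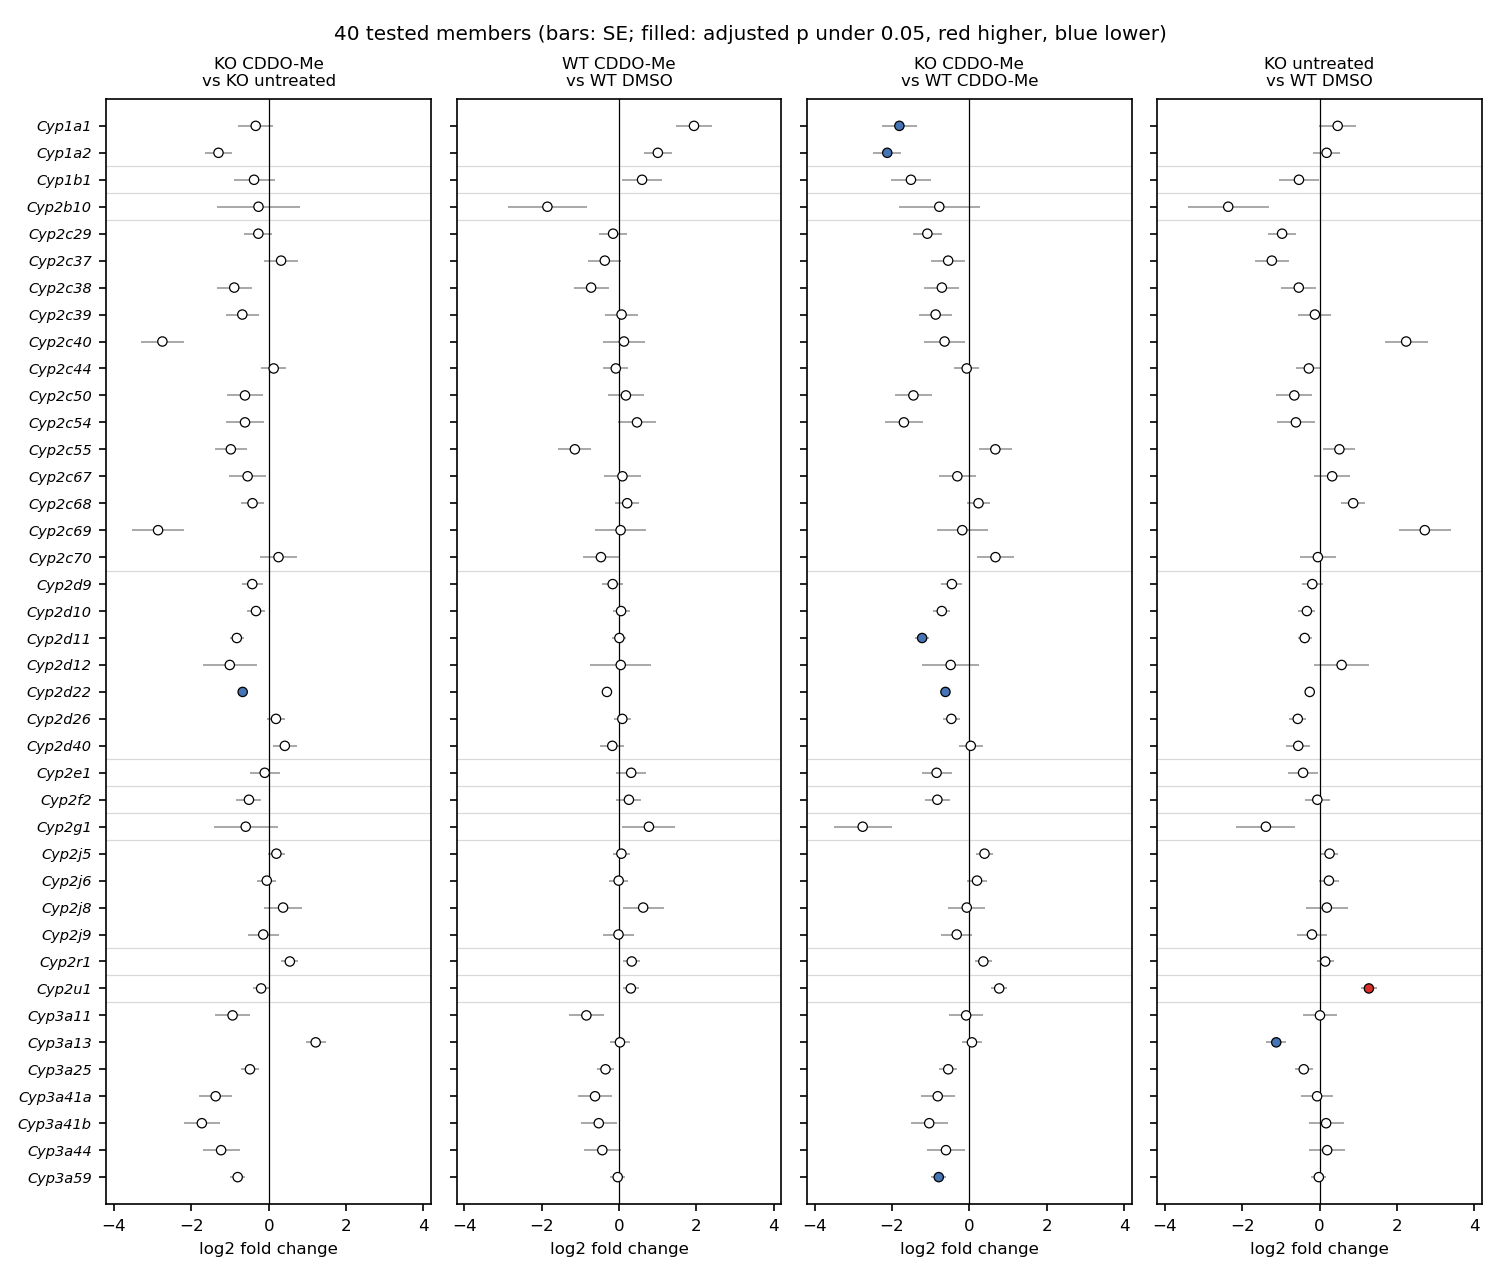
Log2 fold change (x axis) of the 40 tested members (y axis, grouped by subfamily) in 4 comparisons, each with its SE as a bar; filled points passed an adjusted p under 0.05, blue lower and red higher. In KO CDDO-Me against WT CDDO-Me livers 31 of 40 points lie below 0 and 5 are filled, while in WT CDDO-Me against WT DMSO livers 18 of 40 lie below 0 and none is filled.

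Both Cyp1a members were lower in KO CDDO-Me relative to WT CDDO-Me livers. Cyp1a2, which oxidises caffeine and arylamines, had 99.3, 106, 247 and 289 CPM in KO CDDO-Me livers and 415, 408, 575 and 427 CPM in KO untreated livers. Cyp1a2 was at 635, 791, 1124 and 672 CPM in WT CDDO-Me livers and 265, 278, 450.3 and 613 CPM in WT DMSO livers. Every KO CDDO-Me liver was below every library of the other groups, except that KO CDDO-Me 4 was above WT DMSO 1 and 2, and every WT CDDO-Me liver was above all libraries of the other groups. Cyp1a2 fell under the drug in KO relative to WT livers, to a fold of 0.2301 (log2 fold change -2.12 ± 0.36, edgeR adjusted p = 0.00303), and this call held in each of the 16 fits that left out 1 library. Without KO CDDO-Me 1 and 2 the log2 fold change was -1.59, at an edgeR adjusted p = 0.0718.

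Within KO, Cyp1a2 was at 185 ± 97.1 CPM with CDDO-Me and 456 ± 79.9 CPM untreated (mean ± SD, n = 4 each), with no overlap but no call (log2 fold change -1.30 ± 0.36, edgeR adjusted p = 0.172). Within WT it was at 805 ± 223 CPM with CDDO-Me and 402 ± 164 CPM with DMSO, again with no overlap and no call (log2 fold change 1.00 ± 0.35, edgeR adjusted p = 0.217). The difference between the responses, WT minus KO, was 2.30 in log2 units (edgeR adjusted p = 0.0866). It was called in 4 of 25 fits, among them DESeq2 and the fit without WT DMSO 4.

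Cyp1a1, a strongly inducible AHR target that oxidises polycyclic aromatic hydrocarbons, was at a far lower level than Cyp1a2, with 0.987 ± 0.1999 against 359 ± 94.4 FPKM in WT CDDO-Me livers (mean ± SD, n = 4 each). Cyp1a1 had 0.486, 0.479, 1.402 and 1.1004 CPM in KO CDDO-Me livers and 0.813, 0.917, 2.12 and 0.597 CPM in KO untreated livers. Cyp1a1 was at 1.83, 3.27, 3.48 and 3.95 CPM in WT CDDO-Me livers and 0.819, 0.763, 1.204 and 0.459 CPM in WT DMSO livers. All WT CDDO-Me livers were above all KO CDDO-Me and WT DMSO livers, while KO untreated 3 reached into the WT CDDO-Me range and the other 3 groups overlapped each other. Cyp1a1 fell in KO CDDO-Me relative to WT CDDO-Me livers (log2 fold change -1.81 ± 0.45, edgeR adjusted p = 0.0363). That call was lost on leaving out KO CDDO-Me 1, 2 or 4 or WT CDDO-Me 2, 3 or 4, with edgeR adjusted p = 0.0604 to 0.123, and without both KO CDDO-Me 1 and 2 (-1.31, edgeR adjusted p = 0.378). In WT livers the drug gave a log2 change of 1.94 ± 0.47 (edgeR adjusted p = 0.0715), which was not called. It was called higher in 3 of 26 fits, namely DESeq2, the fit without KO untreated 3 and that with replicate number as a block.

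Cyp1b1, which hydroxylates oestrogens and aromatic hydrocarbons mainly outside hepatocytes, had 0.728, 1.29, 0.478 and 0.5502 CPM in KO CDDO-Me livers and 0.356, 0.724, 1.32 and 1.49 CPM in KO untreated livers. Cyp1b1 was at 3.14, 1.41, 1.11 and 2.75 CPM in WT CDDO-Me livers and 1.36, 0.624, 0.8698 and 2.71 CPM in WT DMSO livers. The groups overlapped, and Cyp1b1 was not called by edgeR over all 16 libraries in any comparison, the nearest being KO CDDO-Me against WT CDDO-Me livers (log2 fold change -1.51 ± 0.52, edgeR adjusted p = 0.135). In that comparison 2 of 26 fits called it lower, those with the intronic share as a covariate and with only the groups compared (lowest edgeR adjusted p = 0.0227). Summed over Cyp1a1 and Cyp1a2, the FPKM level ranged over 50.02 to 146 in KO CDDO-Me livers, 206 to 289.7 in KO untreated livers, 249 to 475 in WT CDDO-Me livers and 155 to 246 in WT DMSO livers. KO CDDO-Me lay below each other group in the deposited FPKM, whereas after rescaling by TMM factors its sums of 49.5 to 144 met the WT DMSO sums of 132 to 305.

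**Figure D3:**
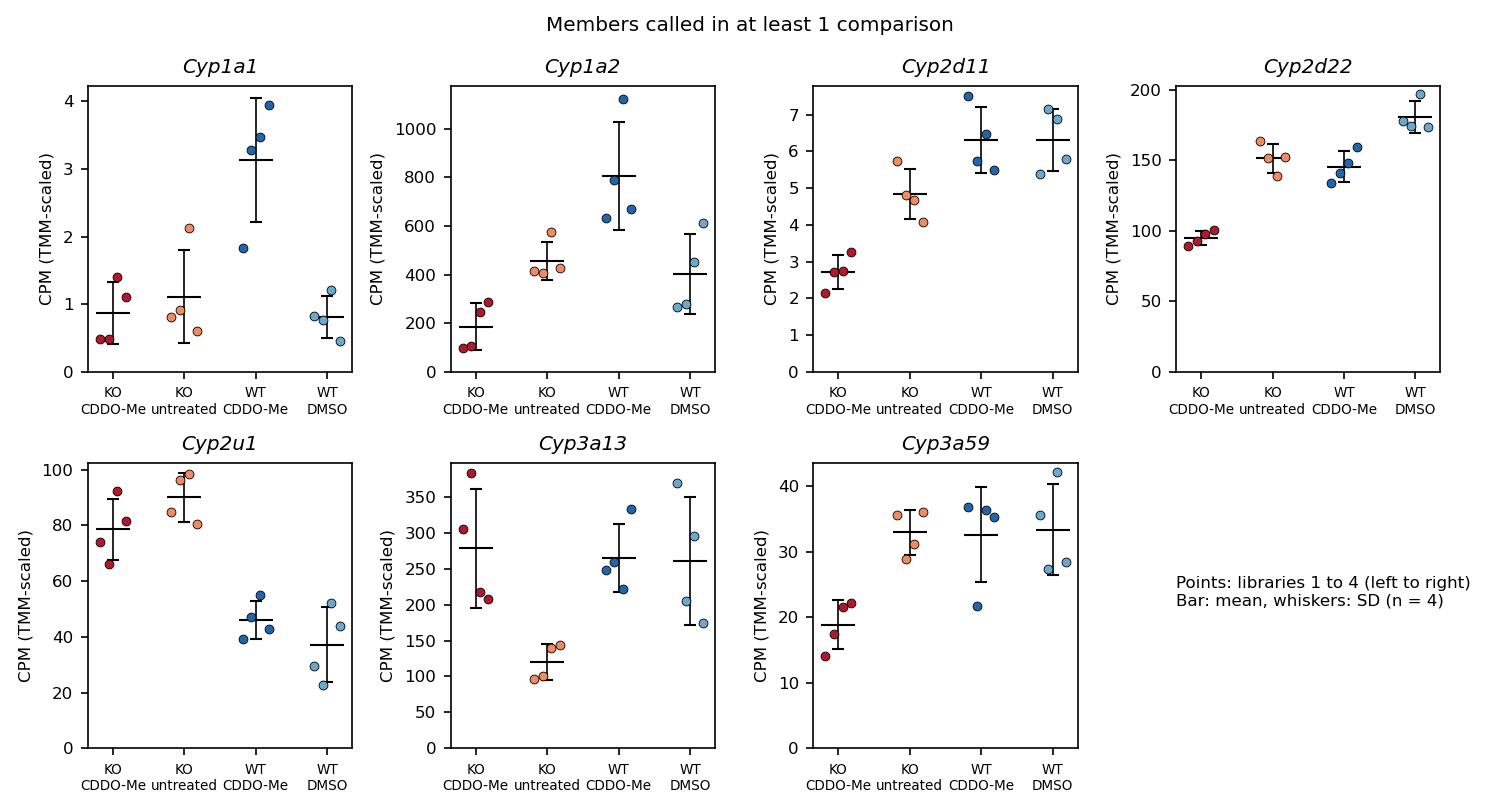
Level (TMM-scaled CPM, y axis, from 0) of the 7 members called in at least 1 comparison, in the 4 groups (x axis); points are libraries 1 to 4 from left to right, bars the mean and whiskers the SD of 4. Cyp1a2 lies at 99.3 to 289 CPM in KO CDDO-Me livers against 635 to 1124 CPM in WT CDDO-Me livers, and Cyp3a13 lies lowest in KO untreated livers at 96.8 to 143 CPM.

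Cyp2b10, the standard CAR target, was at low and uneven levels, with 1.58, 0.909, 0.127 and 0.481 CPM in KO CDDO-Me livers and 0, 0.241, 0.189 and 3.15 CPM in KO untreated livers. Cyp2b10 was at 2.15, 1.34, 0.158 and 1.29 CPM in WT CDDO-Me livers and 4.502, 8.12, 6.02 and 0.367 CPM in WT DMSO livers. The highest values were in WT DMSO 1, 2 and 3, WT DMSO 4 was at 0.367 CPM, and the groups overlapped. A count of 0 in KO untreated 1 allows a level of up to 0.152 CPM, the worth of 3 counts in that library. Cyp2b10 was not called, with log2 fold changes of -2.36 ± 1.04 (edgeR adjusted p = 0.311) in KO untreated against WT DMSO livers and -1.85 ± 1.02 (edgeR adjusted p = 0.381) in WT CDDO-Me against WT DMSO livers. Cyp2b9, a female-biased gene of mouse liver, was too low to test, at 0 CPM in KO CDDO-Me 1, 2 and 4 and 0.0319 CPM in KO CDDO-Me 3, against 0.559, 0.0965, 0.142 and 0.9802 CPM in KO untreated livers, 0.0762, 0.149, 0 and 0.275 CPM in WT CDDO-Me livers and 0, 0.0694, 0.201 and 0.0459 CPM in WT DMSO livers. It was highest in KO untreated 1 and 4, and the 0 counts allow up to 0.144 CPM in KO CDDO-Me 2 and 0.237 CPM in WT CDDO-Me 3, the widest limits of their groups. These limits cover counting error only.

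The Cyp2c subfamily, whose enzymes oxidise arachidonic acid and many drugs, had 13 tested members and 0 calls by edgeR in each of the 4 comparisons and the interaction. At an unadjusted p under 0.05 it had 3 members (23.1%, against 17.1% of all genes) in KO CDDO-Me against WT CDDO-Me livers and 3 (23.1%, against 15.8%) in KO CDDO-Me against KO untreated livers. It had 5 (38.5%, against 14.1%) in KO untreated against WT DMSO livers and 1 (7.69%, against 15.3%) in WT CDDO-Me against WT DMSO livers. DESeq2, which called 3.1% of 33730 genes in KO CDDO-Me against WT CDDO-Me livers, called Cyp2c50 and Cyp2c54 lower there. It also called Cyp2c40 and Cyp2c69 lower in KO CDDO-Me relative to KO untreated livers (0.866% of genes), and higher in KO untreated than in WT DMSO livers (1.8% of genes). The median log2 fold change of the 13 was -0.55, -0.61, -0.12 and 0.04 in those 4 comparisons in the order just given, against -0.01, -0.04, 0.0035 and -0.02 over all genes tested. The summed level was 613 to 1158 FPKM in KO CDDO-Me livers, 949 to 1300.1 FPKM in KO untreated livers, 857 to 1392 FPKM in WT CDDO-Me livers and 845 to 1403 FPKM in WT DMSO livers, with overlap among all groups.

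Cyp2c40, which hydroxylates arachidonic acid, had 21.8, 16.8, 29.1 and 22.3 CPM in KO CDDO-Me livers and 79.1, 84.1, 128 and 314 CPM in KO untreated livers. Cyp2c40 was at 20.9, 15.9, 80.6 and 23.1 CPM in WT CDDO-Me livers and 11.1, 37.4, 42.6 and 37.1 CPM in WT DMSO livers. All KO untreated livers were above all KO CDDO-Me and all WT DMSO livers, and KO untreated 4 was the highest of all 16. Its log2 change was -2.75 ± 0.56 (edgeR adjusted p = 0.075) in KO CDDO-Me against KO untreated livers and 2.24 ± 0.55 (edgeR adjusted p = 0.0571) in KO untreated against WT DMSO livers, neither of them called. In that order, 6 and 4 of 26 fits called Cyp2c40. Cyp2c69 followed the same order, with 6.31, 6.08, 7.68 and 5.78 CPM in KO CDDO-Me livers and 11.9, 17.8, 27.1 and 131 CPM in KO untreated livers. Cyp2c69 was at 4.25, 3.05, 13.9 and 8.63 CPM in WT CDDO-Me livers and 2.25, 9.51, 9.0996 and 7.62 CPM in WT DMSO livers. KO untreated 4 stood far above the rest, and all KO untreated livers were above all KO CDDO-Me and WT DMSO livers. Its log2 fold changes were -2.86 ± 0.67 (edgeR adjusted p = 0.111) in KO CDDO-Me against KO untreated livers and 2.72 ± 0.68 (edgeR adjusted p = 0.0597) in KO untreated against WT DMSO livers. Of the windows of 150 bases along their transcripts, 29.14% of Cyp2c40 and 22.51% of Cyp2c69 occur identically in another gene, the closest being each other, so the split of reads between them is uncertain.

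Cyp2c50 and Cyp2c54, arachidonic and linoleic acid oxidases, varied together across the 16 libraries (Pearson r = 0.986 of log2 CPM, a description over libraries that share groups and scaling). Cyp2c50 had 57.02, 69.9, 245 and 324 CPM in KO CDDO-Me livers and 210.2, 226, 362 and 268 CPM in KO untreated livers. Cyp2c50 was at 272, 414, 677 and 531 CPM in WT CDDO-Me livers and 288, 297, 591 and 498 CPM in WT DMSO livers. The lowest values by far were in KO CDDO-Me 1 and 2. Cyp2c54 had 17.4, 27.5, 80.1 and 133 CPM in KO CDDO-Me livers and 78.8, 81.2, 135 and 101 CPM in KO untreated livers. Cyp2c54 was at 126, 205, 259 and 245 CPM in WT CDDO-Me livers and 104, 92.7, 231 and 176 CPM in WT DMSO livers. For both genes KO CDDO-Me 1 and 2 were far below the other 14 libraries and KO CDDO-Me 3 and 4 were within the range of KO untreated livers. In KO CDDO-Me against WT CDDO-Me livers the log2 change was -1.44 ± 0.47 (edgeR adjusted p = 0.112) for Cyp2c50 and -1.69 ± 0.50 (edgeR adjusted p = 0.0746) for Cyp2c54, and the groups overlapped for both.

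Cyp2c29, an arachidonic acid epoxygenase, had 236, 269, 532 and 607 CPM in KO CDDO-Me livers and 345, 347, 625 and 663 CPM in KO untreated livers. Cyp2c29 was at 706, 632, 1105 and 1039 CPM in WT CDDO-Me livers and 621, 682, 1560.2 and 1009 CPM in WT DMSO livers. Every KO CDDO-Me liver was below every WT CDDO-Me liver without a call (log2 fold change -1.08 ± 0.37, edgeR adjusted p = 0.128). Cyp2c37, whose main arachidonic acid product is an alcohol, had 30.8, 45.2, 100.4 and 144 CPM in KO CDDO-Me livers and 43.4, 70.2, 89.9 and 53.4 CPM in KO untreated livers. Cyp2c37 was at 81.6, 107, 131 and 149 CPM in WT CDDO-Me livers and 89.98, 99.8, 273 and 141 CPM in WT DMSO livers. Its KO untreated livers did not exceed the lowest WT DMSO liver, without a call (log2 fold change -1.23 ± 0.44, edgeR adjusted p = 0.185).

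Cyp2c70, which makes the muricholic acids of mouse bile, had 458, 504, 731 and 507 CPM in KO CDDO-Me livers and 257, 503, 589 and 498 CPM in KO untreated livers. Cyp2c70 was at 279, 192, 600.3 and 305 CPM in WT CDDO-Me livers and 247, 230.1, 298 and 1126 CPM in WT DMSO livers. WT DMSO 4 was the highest of all libraries, the groups overlapped, and its edgeR adjusted p was at least 0.517 in the 4 comparisons. Cyp2c55, a minor fatty acid hydroxylase in liver, had 2.99, 3.06, 7.33 and 5.54 CPM in KO CDDO-Me livers and 4.62, 6.08, 11.04 and 15.7 CPM in KO untreated livers. Cyp2c55 was at 3.54, 1.49, 4.35 and 2.39 CPM in WT CDDO-Me livers and 4.16, 5.13, 8.698 and 8.22 CPM in WT DMSO livers. It was not called, with a log2 change of -1.14 ± 0.43 (edgeR adjusted p = 0.24) in WT CDDO-Me against WT DMSO livers. The other 5 Cyp2c members, Cyp2c38, Cyp2c39, Cyp2c44, Cyp2c67 and Cyp2c68, ranged in log2 fold change over the 4 comparisons between -0.89 (Cyp2c38, KO CDDO-Me against KO untreated) and 0.87 (Cyp2c68, KO untreated against WT DMSO).

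Of 7 tested Cyp2d members 2, Cyp2d22 and Cyp2d11, fell in KO CDDO-Me relative to WT CDDO-Me livers. Cyp2d22, a mouse counterpart of human CYP2D6, had 88.9, 92.7, 97.96 and 100.2 CPM in KO CDDO-Me livers and 164, 152, 139 and 152 CPM in KO untreated livers. Cyp2d22 was at 134, 141, 148 and 159 CPM in WT CDDO-Me livers and 178, 174, 197 and 173 CPM in WT DMSO livers. All KO CDDO-Me livers were below the other 12 libraries, and all WT DMSO livers were above the other 12. Cyp2d22 fell in KO CDDO-Me livers both relative to WT CDDO-Me livers (log2 fold change -0.62 ± 0.11, edgeR adjusted p = 0.00559) and relative to KO untreated livers (log2 fold change -0.67 ± 0.11, edgeR adjusted p = 0.0246). The first call held in each of 16 fits that left out 1 library and the second in 6 of them. It was lost without WT CDDO-Me 2, 3 or 4, KO untreated 1, 2 or 3 or any KO CDDO-Me library (edgeR adjusted p = 0.0504 to 0.126, log2 fold change -0.71 to -0.64). Without KO CDDO-Me 1 and 2 the values were -0.56 (edgeR adjusted p = 0.163) against WT CDDO-Me and -0.60 (edgeR adjusted p = 0.511) against KO untreated. In WT the drug response was -0.31 ± 0.11 (edgeR adjusted p = 0.229), also with no overlap and not called, and the difference between the responses was 0.36 (edgeR adjusted p = 0.555).

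Cyp2d11 had 2.14, 2.73, 2.74 and 3.27 CPM in KO CDDO-Me livers and 5.74, 4.83, 4.67 and 4.09 CPM in KO untreated livers. Cyp2d11 was at 7.51, 5.73, 6.48 and 5.51 CPM in WT CDDO-Me livers and 5.39, 7.15, 6.89 and 5.79 CPM in WT DMSO livers. All KO CDDO-Me livers were below all other libraries, while KO untreated livers overlapped both WT groups. It fell in KO CDDO-Me relative to WT CDDO-Me livers, to a fold of 0.4298 (log2 fold change -1.22 ± 0.19, edgeR adjusted p = 0.00105), and the call held in all 16 fits that left out 1 library and also without KO CDDO-Me 1 and 2 (log2 fold change -1.08, edgeR adjusted p = 0.0467). Against KO untreated livers its log2 change was -0.83 ± 0.18 (edgeR adjusted p = 0.097) and was not called. Of its 150-base windows, 5.62% are shared with Cyp2d10.

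Cyp2d9, a male-biased steroid hydroxylase, had 398, 438, 683 and 708 CPM in KO CDDO-Me livers and 717, 671, 1008 and 596 CPM in KO untreated livers. Cyp2d9 was at 452, 800.4, 936 and 854 CPM in WT CDDO-Me livers and 696, 655, 992 and 1063 CPM in WT DMSO livers. The groups overlapped and it was not called (log2 fold change -0.45 ± 0.27, edgeR adjusted p = 0.44 in KO CDDO-Me against WT CDDO-Me livers). Cyp2d26 had 373, 421, 462 and 425 CPM in KO CDDO-Me livers and 301, 308, 442 and 426 CPM in KO untreated livers. Cyp2d26 was at 486, 528, 625 and 677 CPM in WT CDDO-Me livers and 389, 412, 785 and 596 CPM in WT DMSO livers. The KO CDDO-Me range lay below that of WT CDDO-Me livers, without a call (log2 fold change -0.46 ± 0.22, edgeR adjusted p = 0.306). Cyp2d10 likewise did not overlap in that comparison, at 324 to 448 CPM in KO CDDO-Me livers against 563 to 717 CPM in WT CDDO-Me livers (log2 fold change -0.71 ± 0.22, edgeR adjusted p = 0.0986). There 5 of 26 fits called Cyp2d10 lower (lowest edgeR or DESeq2 adjusted p = 0.00257). Non-overlap in the lower direction was thus seen in 4 of 7 tested Cyp2d members there, and in 8 of 40 tested members (20%), against 9.82% of all genes tested. Cyp2d12 and Cyp2d40 were not called, at log2 fold changes of -1.01 to 0.57 over the 4 comparisons, and the untested Cyp2d34 had 0 to 0.367 CPM in a library. The summed Cyp2d level was 746 to 1053 FPKM in KO CDDO-Me livers, 989 to 1354 FPKM in KO untreated livers, 1051 to 1281 FPKM in WT CDDO-Me livers and 1212 to 1496 FPKM in WT DMSO livers. The KO CDDO-Me sums all lay under the WT DMSO sums, which no longer held after rescaling by TMM factors (738 to 1088 in KO CDDO-Me against 1032 to 1703 in WT DMSO livers).

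**Figure D4:**
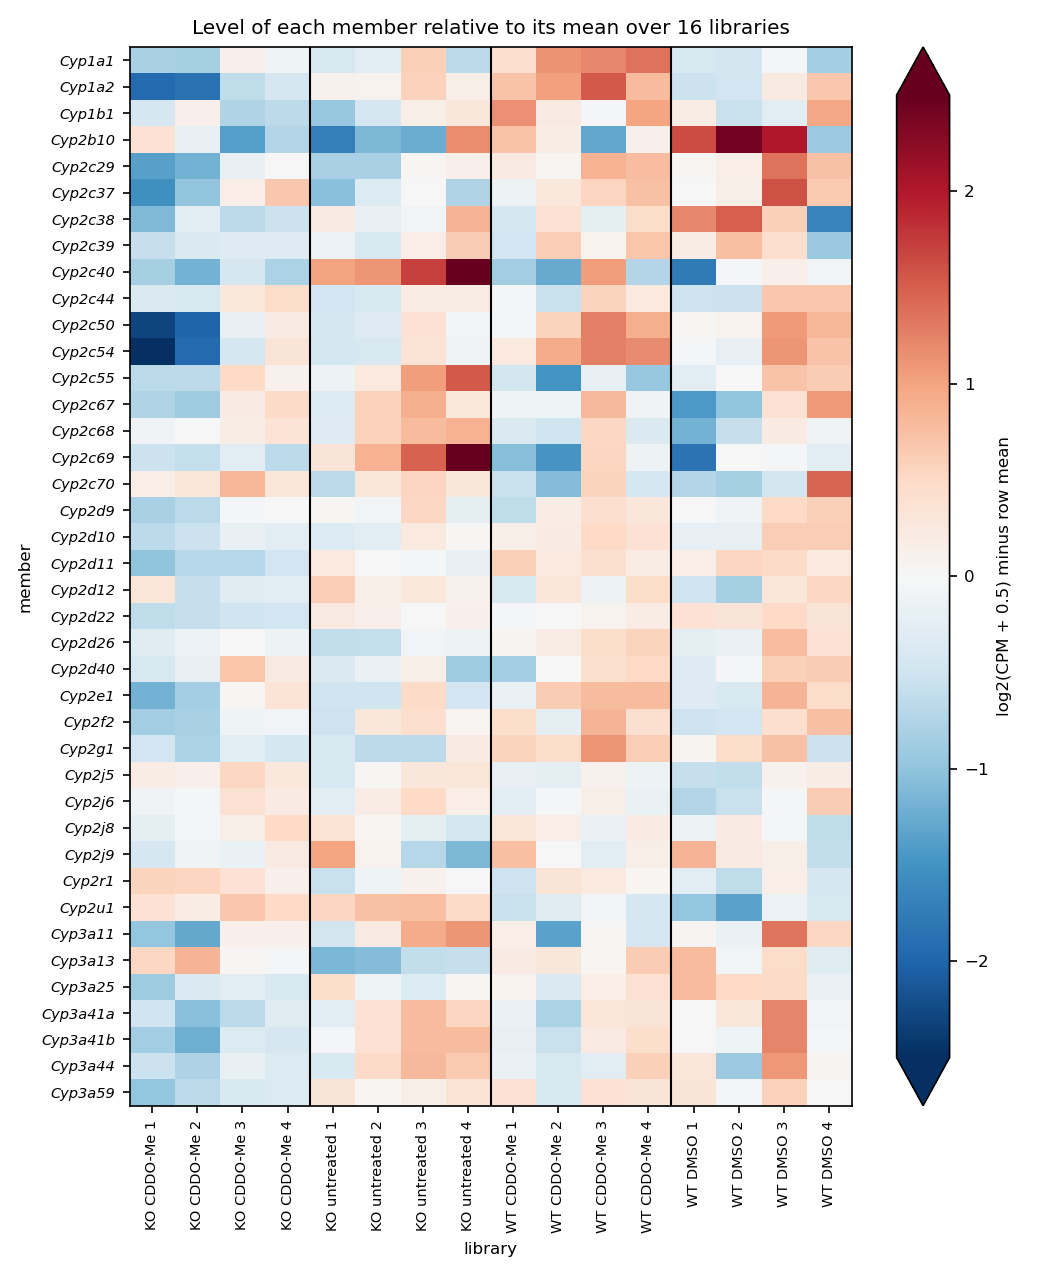
Level of each of the 40 tested members (y axis) in each of the 16 libraries (x axis), as log2(CPM + 0.5) minus the member's mean over the libraries; blue is below the mean and red above it. KO CDDO-Me 1 and 2 are blue for Cyp1a1, Cyp1a2, Cyp2c50 and Cyp2c54, and Cyp2c40 and Cyp2c69 are red in KO untreated livers, most of all in library 4.

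The single-gene subfamilies differed in direction. Cyp2e1 had 1168, 1471, 2726 and 3378 CPM in KO CDDO-Me livers and 1897, 1891, 3690.2 and 1920.2 CPM in KO untreated livers. Cyp2e1 was at 2372, 4151, 4588 and 4584 CPM in WT CDDO-Me livers and 2129, 2047, 4795 and 3647 CPM in WT DMSO livers. The groups overlapped, and the log2 change was -0.84 ± 0.39 (edgeR adjusted p = 0.278) in KO CDDO-Me against WT CDDO-Me livers. Cyp2f2, which activates naphthalene and is known as a periportal P450, had 439.9, 458, 743 and 758 CPM in KO CDDO-Me livers and 560.4, 969.9, 1066 and 826 CPM in KO untreated livers. Cyp2f2 was at 1082, 675, 1442 and 1053 CPM in WT CDDO-Me livers and 561, 576, 1072 and 1350.5 CPM in WT DMSO livers. It overlapped among groups (log2 fold change -0.82 ± 0.33, edgeR adjusted p = 0.195 in KO CDDO-Me against WT CDDO-Me livers), and 13.53% of its exonic bases lie opposite Gm15883, which was not called in any comparison. Cyp2g1, best known from olfactory tissue, was near the detection floor, with 0.121, 0, 0.223 and 0.138 CPM in KO CDDO-Me livers and 0.152, 0.0483, 0.0472 and 0.511 CPM in KO untreated livers. Cyp2g1 was at 0.762, 0.6697, 1.34 and 0.826 CPM in WT CDDO-Me livers and 0.409, 0.694, 0.937 and 0.0918 CPM in WT DMSO livers. The KO CDDO-Me range lay below that of WT CDDO-Me livers (log2 fold change -2.76 ± 0.75, edgeR adjusted p = 0.057), at 0 to 7 counts in a KO CDDO-Me library, where the 0 of KO CDDO-Me 2 allows up to 0.144 CPM. In that comparison 7 of 26 fits called Cyp2g1 lower (lowest edgeR or DESeq2 adjusted p = 0.00753).

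Cyp2u1, a fatty acid omega-hydroxylase, had 74.2, 66.3, 92.2 and 81.5 CPM in KO CDDO-Me livers and 84.8, 96.5, 98.4 and 80.5 CPM in KO untreated livers. Cyp2u1 was at 39.1, 47.2, 54.9 and 42.7 CPM in WT CDDO-Me livers and 29.6, 22.7, 52.3 and 43.99 CPM in WT DMSO livers. All KO libraries were above all WT libraries. Cyp2u1 rose in KO untreated relative to WT DMSO livers, to a fold of 2.42 (log2 fold change 1.28 ± 0.21, edgeR adjusted p = 0.00696), a call that held in each of 16 fits that left out 1 library. Under the drug Cyp2u1 was not called in KO against WT livers (log2 fold change 0.77 ± 0.21, edgeR adjusted p = 0.0576). However, 8 of 26 fits called it higher there (lowest edgeR or DESeq2 adjusted p = 0.0039), and all gave a log2 change of 0.69 to 0.91. The drug gave -0.20 ± 0.21 (edgeR adjusted p = 0.615) in KO and 0.31 ± 0.21 (edgeR adjusted p = 0.469) in WT. Without the 4 libraries rich in intronic counts the untreated difference was 0.87 (edgeR adjusted p = 0.0732). Of its exonic bases 10.45% lie opposite 4930534D22Rik, which had 0 to 14 counts in a library, and reads of the pair cannot be told apart where counting ignored strand.

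Cyp2r1, a vitamin D 25-hydroxylase, had 21.04, 20.7, 18.3 and 15.5 CPM in KO CDDO-Me livers and 9.396, 12.98, 15.3 and 14.1 CPM in KO untreated livers. Cyp2r1 was at 9.68, 17.9, 16.8 and 14.7 CPM in WT CDDO-Me livers and 11.6, 8.95, 15.9 and 10.4 CPM in WT DMSO livers. Here the KO CDDO-Me range lay above that of KO untreated livers, without a call (log2 fold change 0.54 ± 0.22, edgeR adjusted p = 0.266). Cyp2j5, an arachidonic acid epoxygenase of liver and kidney, had 537, 514, 678 and 568 CPM in KO CDDO-Me livers and 364, 478, 575 and 585 CPM in KO untreated livers. Cyp2j5 was at 407, 401, 506 and 434 CPM in WT CDDO-Me livers and 318, 307, 510.1 and 539 CPM in WT DMSO livers. All KO CDDO-Me livers were above all WT CDDO-Me livers, also without a call (log2 fold change 0.39 ± 0.21, edgeR adjusted p = 0.377). The 4 tested Cyp2j members gave 0 calls by edgeR, 0 members at an unadjusted p under 0.05 in each of the 4 comparisons, and 0 by DESeq2. Apart from Cyp2j5 these were Cyp2j6, Cyp2j8 and Cyp2j9, at log2 fold changes of -0.32 to 0.62. Their summed FPKM level, mostly Cyp2j5, was 251, 234, 293 and 271 in KO CDDO-Me livers, 251, 281, 266 and 263 in KO untreated livers, 207, 187, 202 and 153 in WT CDDO-Me livers and 181, 178, 210.4 and 209 in WT DMSO livers. All KO sums were above all WT sums in the deposited FPKM, whereas after rescaling by TMM factors the sums were 240.04 to 315 in KO CDDO-Me livers and 179 to 272 in KO untreated livers, and both overlapped the WT DMSO sums of 148 to 259. KO CDDO-Me livers then still lay above WT CDDO-Me livers, at 192 to 238.

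In the Cyp3a subfamily 7 members were tested. At an unadjusted p under 0.05 it had 5 members (71.4%, against 15.8% of all genes) in KO CDDO-Me against KO untreated livers. There were 3 (42.9%, against 17.1%) in KO CDDO-Me against WT CDDO-Me livers. KO untreated against WT DMSO livers gave 1 (14.3%, against 14.1%), and WT CDDO-Me against WT DMSO livers 0 (against 15.3%). Median log2 fold changes were -0.94, -0.60, -0.02 and -0.43 in that order. Cyp3a41a and Cyp3a41b, of mostly shared sequence, are not independent. Cyp3a11, the main drug-oxidising Cyp3a enzyme of mouse liver, had 1109.5, 894, 2359.7 and 2355 CPM in KO CDDO-Me livers and 1566, 2535, 4091 and 4653 CPM in KO untreated livers. Cyp3a11 was at 2416, 857, 2207 and 1624 CPM in WT CDDO-Me livers and 2265, 1914, 5488 and 3079 CPM in WT DMSO livers. Both CDDO-Me groups overlapped their controls, and the log2 change was -0.94 ± 0.45 (edgeR adjusted p = 0.323) in KO and -0.84 ± 0.45 (edgeR adjusted p = 0.367) in WT. The summed Cyp3a level was 451, 472, 678 and 720.4 FPKM in KO CDDO-Me livers, 918, 925, 1019.7 and 1169 FPKM in KO untreated livers, 856, 426, 656 and 546 FPKM in WT CDDO-Me livers and 1131, 924, 1324 and 706 FPKM in WT DMSO livers. All KO CDDO-Me sums lay under all KO untreated sums in the deposited FPKM, but after rescaling by TMM factors they met, at 447 to 731 against 654 to 1205.

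Cyp3a59 had 14.2, 17.5, 21.5 and 22.2 CPM in KO CDDO-Me livers and 35.6, 28.9, 31.2 and 36.1 CPM in KO untreated livers. Cyp3a59 was at 36.9, 21.7, 36.4 and 35.3 CPM in WT CDDO-Me livers and 35.5, 27.3, 42.2 and 28.4 CPM in WT DMSO livers. All KO CDDO-Me livers were below all KO untreated livers and below all WT CDDO-Me livers, except that KO CDDO-Me 4 was just above WT CDDO-Me 2. It fell in KO CDDO-Me relative to WT CDDO-Me livers (log2 fold change -0.79 ± 0.20, edgeR adjusted p = 0.0361), a call lost without KO CDDO-Me 1, 2 or 3 or WT CDDO-Me 1, 3 or 4 (edgeR adjusted p = 0.063 to 0.127). Without both KO CDDO-Me 1 and 2 the value was -0.58 (edgeR adjusted p = 0.409). Against KO untreated livers the size was alike but not called (log2 fold change -0.80 ± 0.20, edgeR adjusted p = 0.123).

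Cyp3a13 had 305, 383, 218 and 208 CPM in KO CDDO-Me livers and 96.8, 101, 139.9 and 143 CPM in KO untreated livers. Cyp3a13 was at 248, 259.8, 222 and 332 CPM in WT CDDO-Me livers and 369.5, 204, 296 and 174 CPM in WT DMSO livers. All KO untreated livers were below all libraries of the other 3 groups. It fell in KO untreated relative to WT DMSO livers (log2 fold change -1.12 ± 0.26, edgeR adjusted p = 0.0411). It was higher in all KO CDDO-Me than in all KO untreated livers without a call (log2 fold change 1.21 ± 0.26, edgeR adjusted p = 0.0907). That rise was called in 3 of 26 fits, namely DESeq2 and those without WT DMSO 4, alone or with WT CDDO-Me 1 (lowest edgeR or DESeq2 adjusted p = 0.000934). Under the drug the genotypes overlapped (log2 fold change 0.07 ± 0.25, edgeR adjusted p = 0.939). The call in KO untreated against WT DMSO livers was lost in 11 of 16 fits that left out 1 library (edgeR adjusted p = 0.0528 to 0.123). Those left out WT DMSO 1 or 3, any WT CDDO-Me or KO untreated library, or KO CDDO-Me 1. Without the 4 libraries rich in intronic counts that log2 fold change was -0.75 (edgeR adjusted p = 0.231). Cyp3a13 was the only tested Cyp3a member with a positive fold change in KO CDDO-Me against KO untreated livers, as the other 6 ranged from -1.73 to -0.49.

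Cyp3a25, a testosterone hydroxylase, had 244, 352, 378 and 349 CPM in KO CDDO-Me livers and 612, 422, 358 and 459.8 CPM in KO untreated livers. Cyp3a25 was at 481, 354, 508 and 586 CPM in WT CDDO-Me livers and 780.3, 644, 629 and 404 CPM in WT DMSO livers. Cyp3a25 groups overlapped in each comparison, and its lowest edgeR adjusted p was 0.236, in KO CDDO-Me against WT CDDO-Me livers. The female-biased Cyp3a41a, Cyp3a41b and Cyp3a44 were at low levels. Cyp3a41a had 0.931, 0.479, 0.765 and 1.13 CPM in KO CDDO-Me livers and 1.17, 2.08, 2.97 and 2.43 CPM in KO untreated livers. Cyp3a41a was at 1.295, 0.6697, 1.98 and 2.02 CPM in WT CDDO-Me livers and 1.501, 1.94, 4.22 and 1.42 CPM in WT DMSO livers. Its highest value was in WT DMSO 3. Cyp3a41b had 0.445, 0.239, 0.8602 and 0.791 CPM in KO CDDO-Me livers and 1.17, 1.74, 2.501 and 2.51 CPM in KO untreated livers. Cyp3a41b was at 0.9999, 0.6697, 1.502 and 1.84 CPM in WT CDDO-Me livers and 1.23, 1.11, 3.55 and 1.19 CPM in WT DMSO livers. Both were lower in all KO CDDO-Me than in all KO untreated livers without a call, at -1.37 ± 0.43 (edgeR adjusted p = 0.214) and -1.73 ± 0.47 (edgeR adjusted p = 0.172) on the log2 scale in the order named, and 82.89% of the 150-base windows of Cyp3a41a and 82.72% of those of Cyp3a41b occur in another gene, so the split of reads between them is uncertain. Cyp3a44 had 0.769, 0.574, 1.12 and 0.963 CPM in KO CDDO-Me livers and 0.914, 2.08, 2.74 and 2.39 CPM in KO untreated livers. Cyp3a44 was at 1.13, 0.893, 1.03 and 2.29 CPM in WT CDDO-Me livers and 1.77, 0.486, 3.41 and 1.42 CPM in WT DMSO livers, with overlap of its KO CDDO-Me and KO untreated livers (log2 fold change -1.23 ± 0.48, edgeR adjusted p = 0.263). The untested Cyp3a16 had 0.0694 to 1.004 CPM and Cyp3a57 0 to 0.273 CPM in a library, and Cyp2s1, the sole Cyp2s member, had 0 to 0.341 CPM.

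Members of a subfamily did not all vary alike across the 16 libraries. The median Pearson r of log2 CPM between pairs was 0.28 for Cyp2c (78 pairs), 0.49 for Cyp2d (21 pairs), -0.38 for Cyp2j (6 pairs) and 0.62 for Cyp3a (21 pairs). The lowest pair within a subfamily was Cyp2c38 with Cyp2c70 (r = -0.72), and the highest pair across subfamilies was Cyp2e1 with Cyp2c54 (r = 0.92). Cyp1a2 was most like Cyp2c54 (r = 0.90). These values describe libraries that share depth and scaling.

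Of the genes that serve the P450 system, the 13 for electron transfer and heme supply, Por and Alas1 among them, gave 0 calls by edgeR in the 4 comparisons and the interaction. Por had 236 to 344 CPM in KO CDDO-Me livers, 75.1 to 359 CPM in KO untreated livers, 349 to 614 CPM in WT CDDO-Me livers and 230.2 to 461 CPM in WT DMSO livers. All KO CDDO-Me livers were below all WT CDDO-Me livers for Por without a call (log2 fold change -0.65 ± 0.35, edgeR adjusted p = 0.377).

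Of 24 regulators of P450 transcription, 23 were tested. Nr1i3, which encodes CAR, had 8.13 to 28.9 CPM in KO CDDO-Me livers, 21.8 to 66.4 CPM in KO untreated livers, 165 to 257 CPM in WT CDDO-Me livers and 27.6 to 271 CPM in WT DMSO livers, and it fell under the drug in KO relative to WT livers (log2 fold change -3.45 ± 0.57, edgeR adjusted p = 0.00205). Nfe2l2 itself fell in the same comparison (log2 fold change -1.08 ± 0.26, edgeR adjusted p = 0.0283). In KO untreated against WT DMSO livers Ahr fell (log2 fold change -0.88 ± 0.16, edgeR adjusted p = 0.0127) and was the 1 call among the regulators. Ahr had 64.4 to 87.9 CPM in KO CDDO-Me livers and 47.3 to 70.8 CPM in KO untreated livers, against 103 to 134 CPM in WT CDDO-Me livers and 87.5 to 131 CPM in WT DMSO livers, with both KO groups below both WT groups except that KO CDDO-Me and WT DMSO ranges met. Nr1i2, which encodes PXR, was not called, and 0 regulators were called in either drug comparison by edgeR. Of 5 AHR targets outside the P450 families 3 were tested, and only Nqo1, which NRF2 also drives, was called. It rose in WT CDDO-Me relative to WT DMSO livers (log2 fold change 3.33 ± 0.30, edgeR adjusted p = 2.6e-05) and fell in KO CDDO-Me relative to WT CDDO-Me livers (log2 fold change -4.89 ± 0.32, edgeR adjusted p = 1.06e-07).

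Many of the members are known as pericentral genes, so zone and cell type markers were read beside them. Of 10 pericentral markers all 10 had a negative fold change in KO CDDO-Me against WT CDDO-Me livers, with a median of -0.65 and 1 call, Tbx3. All 10 also had a negative fold change in KO CDDO-Me against KO untreated livers, with a median of -0.37 and 0 calls by edgeR, beside the 31 of 40 P450 members that were negative there. Their summed level was 1043 to 2066 CPM in KO CDDO-Me livers, 1368 to 2495 CPM in KO untreated livers, 1632 to 2649 CPM in WT CDDO-Me livers and 1206 to 2549 CPM in WT DMSO livers. Of 10 periportal markers 4 (Hal, Sds, Gls2 and Ass1) rose in KO CDDO-Me relative to WT CDDO-Me livers, and 0 were called in KO CDDO-Me against KO untreated livers. The 10 periportal markers summed to 8949 to 11423 CPM in KO CDDO-Me livers, 7846 to 15110 CPM in KO untreated livers, 6305 to 7112 CPM in WT CDDO-Me livers and 7218 to 10792 CPM in WT DMSO livers. Of 10 Kupffer cell markers 4 (Adgre1, Clec4f, Cd5l and Marco) rose in WT CDDO-Me relative to WT DMSO livers, with summed levels of 470 to 633 CPM against 220.4 to 284 CPM, and the KO groups were at 373 to 562 CPM with CDDO-Me and 263 to 472 CPM untreated. Marco fell in KO CDDO-Me relative to WT CDDO-Me livers, Adgre1 rose in KO untreated relative to WT DMSO livers, and Sds fell in WT CDDO-Me relative to WT DMSO livers. None of the 9 hepatocyte markers found, 8 endothelial, 8 stellate and 6 tested cholangiocyte markers was called by edgeR in a comparison. All 8 stellate markers (median -0.68) and all 8 endothelial markers (median -0.15) had a negative fold change in KO CDDO-Me against WT CDDO-Me livers. All 8 stellate markers had a positive one in WT CDDO-Me and in KO untreated livers, each against WT DMSO livers. Stellate sums were 245 to 394 CPM in KO CDDO-Me livers, 261 to 699.7 CPM in KO untreated livers, 453 to 521 CPM in WT CDDO-Me livers and 218 to 401 CPM in WT DMSO livers. The 8 neutrophil markers, of which 5 were tested and 0 called by edgeR, summed to 143.6 to 697 CPM in KO CDDO-Me livers and 52.6 to 97.7 CPM in KO untreated livers, with no overlap. Their sums were 106 to 1121 CPM in WT CDDO-Me livers and 32.0 to 1340 CPM in WT DMSO livers. Of 8 male-biased genes 1, Ugt2b38, fell in KO CDDO-Me relative to WT CDDO-Me livers, and of 8 female-biased genes 4 were tested and 0 called. The male-biased list includes the member Cyp2d9. The female-biased list includes the members Cyp2b9, Cyp3a41a and Cyp3a44 and also Cyp2b13, so neither list is separate from the P450 genes. Male-biased genes summed to 2727 to 12536 CPM in a library and female-biased ones to 2.77 to 15.0 CPM. The part of these markers in the P450 results was not tested.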

How the data were processed

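Liver RNA was sequenced from ribosomal RNA-depleted directional libraries, 2 x 150 bases, in 4 groups of 4. The deposited table holds raw counts per gene and FPKM, made by the authors. The submitters' processing notes name HTSeq 0.6.1p1, TopHat2 2.1.0, cutadapt 1.2.1, CASAVA 1.8.2, DESeq2 and the build GRCm38.p5. Annotation release, strand setting and filters: not given in the sources used here. FPKM as deposited equalled count per length and library total (largest relative deviation 8.87e-07), and 33629 of 33730 IDs were found in the GRCm38 annotation. Each library is taken as 1 animal, as the design text gives 4 per group; p-values measure the spread between these libraries.

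Counts were scaled by TMM and tested in 1 quasi-likelihood fit of all 16 libraries (edgeR 4.0.16, limma 3.58.1, R 4.3.3; filterByExpr, 12 residual degrees of freedom), with Benjamini-Hochberg adjustment over 16206 genes and a threshold of 0.05. The script was checked on simulated data. CPM are TMM-scaled. Members and gene lists were chosen with earlier results of these data known, and 1 listed regulator is not reported here. Values in every library are given for members called in a comparison, the 5 of largest fold change in each, and a fixed panel. Promoters are RefSeq's (GRCm38.p6). DESeq2 1.42.0 and other settings served as alternatives.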

Additional observations from a re-analysis of the deposited data

Results flagged for a closer look

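In 148 groups of 4 libraries (a member's CPM or a subfamily's summed FPKM), 11 had 1 library whose distance to the nearest other passed Dixon's critical value, where chance gives about 7.4. Cyp2c70 in WT DMSO 4 was at 1126 CPM, with the next highest at 298, and Cyp3a41b in WT DMSO 3 was at 3.55 CPM, with the next highest at 1.23. Cyp2c69 in KO untreated 4 was at 131 CPM, with the next at 27.1, and Cyp2b10 there was at 3.15 CPM, with the next at 0.241, which also set the Cyp2b sum of 1.95 FPKM. In KO untreated 3, Cyp1a2 was at 575 CPM, with the next at 427, and Cyp2e1 at 3690.2 CPM, with the next at 1920.2. In WT CDDO-Me 3, Cyp2c40 was at 80.6 CPM, with the next at 23.1, and the Cyp2c sum was 1392 FPKM, with the next at 919. Cyp3a59 in WT CDDO-Me 2 was low, at 21.7 CPM with the nearest other at 35.3. Cyp2b9 in KO CDDO-Me 3, at 0.0319 CPM, rests on 1 count where the other 3 libraries had 0.

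Cyp1a2 was lower with the drug in KO livers and higher with it in WT livers. All 4 KO CDDO-Me livers were below all KO untreated livers, and all 4 WT CDDO-Me livers were above all WT DMSO livers. The WT response minus the KO response was 2.30 on the log2 scale and missed the threshold (edgeR adjusted p = 0.0866). Over the 25 fits it stayed positive, at 1.77 to 2.68, with an edgeR or DESeq2 adjusted p = 0.00207 to 0.365. KO controls were untreated and WT controls had DMSO, so the vehicle's part cannot be told apart.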

How the results depend on the processing

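Counts of members called, in the order KO CDDO-Me against WT CDDO-Me, KO CDDO-Me against KO untreated, KO untreated against WT DMSO, WT CDDO-Me against WT DMSO and interaction, were 5, 1, 2, 0 and 0, where 3.3, 0.13, 1.38, 0.728 and 0.13% of all genes tested were called. DESeq2 gave 10, 8, 4, 2 and 2, with 3.1, 0.866, 1.8, 1.33 and 0.51% of 33730 genes, a base that includes genes of too low a count to be members. The intronic share as a covariate gave 15, 4, 6, 0 and 1, with 13.4, 0.531, 5.08, 0.95 and 1.24% of all genes. No filter beyond a total of 10 gave 4, 0, 1, 0 and 0, with 1.71, 0.0931, 0.842, 0.427 and 0.106%. Fits on only the groups compared gave 10, 0, 0 and 0, with 13.5, 0.142, 0.13 and 0.504% and no interaction. Without the 4 libraries rich in intronic counts the counts were 8, 0, 0, 0 and 0, with 9.04, 0.0244, 0.525, 0.756 and 0.409%. Without WT DMSO 4 and WT CDDO-Me 1 they were 4, 3, 2, 0 and 0, with 3.14, 0.542, 1.14, 0.641 and 0.16%. Without KO CDDO-Me 1 and 2, a setting chosen after seeing the data, they were 1, 0, 2, 0 and 0, with 0.831, 0.0178, 0.938, 0.487 and 0.0534%. The cause was not tested. Size factors of DESeq2's kind changed no count.

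Replicate numbers were not taken to pair the libraries in the main fit, since the labels state no batch, litter or date. The 24 same-numbered pairs had r from -0.459 to 0.506 (median 0.18, 13 over 0.1), and the 72 differently numbered pairs had a median of -0.06, with 19 over 0.1. Same-numbered libraries thus deviated together more often, and what they share was not tested. The replicate block gave 11, 4, 4, 1 and 1 calls, with 5, 0.284, 1.54, 1.39 and 0.259% of all genes.

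Leaving out 1 library gave 3 to 7, 0 to 3, 1 to 2, 0 to 1 and 0 to 1 calls. The lowest first count came without KO CDDO-Me 1 or 2 or WT CDDO-Me 3 or 4. The second was 0 without any KO CDDO-Me library, KO untreated 1, 2 or 3, or WT CDDO-Me 2 or 4, and 3 without WT DMSO 4. No called member changed direction, while 33 of 128 such fits of a called member missed the threshold, as did 16 of 72 others.

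Rescaling FPKM by TMM factors moved the mean sum of all members to 5063 and of Cyp2j to 237.6 and Cyp2r to 6.12 in KO untreated livers, and of Cyp2d to 1308 in WT CDDO-Me livers. Libraries of 12002317 counts and up limit the low members most, such as Cyp2b9 and Cyp2g1.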
